A study of Mus musculus with 9 samples.

Results

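The genes that license DNA for replication were followed across 5 genotypes of whole mouse embryos: the 6 subunits of the Mcm2 to Mcm7 helicase, the loading factors Cdc6 and Cdt1, and the sliding clamp Pcna. Every probe set annotated to exactly 1 of these 9 symbols was taken, which gave 21 probe sets of the 22626 tested, and 9 genes of the 12393 that the arrays name. Mcm2, Mcm4 and Mcm6 had 2 probe sets each, Mcm3 had 5, Mcm7 had 4, Cdt1 had 3, and Mcm5, Cdc6 and Pcna had 1 each.

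Licensing is the step in G1 phase that prepares replication origins for S phase. The origin recognition complex marks the DNA, and Cdc6 and Cdt1 then load the ring of Mcm2 to Mcm7 around it as an inactive pair of helicases. In S phase Cdc45 and the GINS complex switch the rings on, while geminin binds Cdt1 and Pcna on DNA guides its destruction, which keeps DNA from being licensed again. Transcription of most of these genes follows the E2F factors and is a textbook sign of cells preparing to divide; the midgestation embryo is made largely of cycling cells.

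The embryos were taken at 9.5 days post coitum (dpc), and RNA of whole embryos was hybridised to 9 Affymetrix arrays. Notch1 null (Notch1tm1Con/tm1Con, 2 arrays) and Notch1 het (Notch1tm1Con/+, 1 array) carry a targeted allele of the receptor gene. Dll3 null (Dll3neo/neo, 2 arrays) and Dll3 het (Dll3neo/+, 2 arrays) carry a targeted allele of a Notch ligand gene, and wild type (+/+, 2 arrays) has intact alleles at both loci. The strain C57BL/6J is named for replicate 1 of Notch1 null and for no other array. The labels do not say whether an array is 1 embryo or a pool, or which embryos were littermates, so each p-value covers the spread among these 9 arrays alone, and part of that spread may be technical. In whole-embryo RNA, fewer cycling cells and less of a transcript per cell cannot be told apart.

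The deposited values are ratios in which each probe set was divided by a number of its own, for most its median over the 9 arrays. A ratio therefore compares 1 probe set between arrays; it gives no level that could be set against another gene, and whether a tissue's markers are present could not be checked. Among the targeted genes, Notch1 was 1.63-fold higher in Notch1 null than in wild type at 1 of its 2 probe sets (adjusted p = 0.0138) and 1.52-fold higher at the other (0.142), and Dll3 was 1.21-fold lower in Dll3 null than in wild type (adjusted p = 0.486). Where those probes lie relative to the altered sequence is not known here, and neither value checks the labels. The dap RNA, a control added during preparation, had mean ratios of 5.41 and 2.68 in Notch1 null, 1 in Notch1 het, 0.382 and 0.404 in Dll3 null, 0.395 and 0.421 in Dll3 het, and 7.07 and 9.91 in wild type. Where this control follows genotype, array preparation cannot be told apart from it. Levels of sex-linked genes gave a female pattern in 4 arrays, replicate 1 of each targeted genotype, and a male pattern in the other 5, which include both wild types.

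The promoters of 4 member genes are shown because Mcm5 and Cdc6 are the members with the lowest p in Notch1 null against wild type, while Mcm6 and Mcm7 have the same kind of motif. Each stretch is the 250 bases before the RefSeq gene start on mouse build GRCm38.p6, read 5′ to 3′ on the gene's strand. Capitals mark matches to the E2F octamers TTTCCCGC, TTTCGCGC, TTTGCCGC and TTTGGCGC on either strand; overlapping matches run together. The stretches are chr8:75109259-75109508 on the plus strand for Mcm5, chr11:98907901-98908150 on the plus strand for Cdc6, chr1:128359706-128359955 on the minus strand for Mcm6 and chr5:138171884-138172133 on the minus strand for Mcm7, which has a second start downstream.
Mcm5: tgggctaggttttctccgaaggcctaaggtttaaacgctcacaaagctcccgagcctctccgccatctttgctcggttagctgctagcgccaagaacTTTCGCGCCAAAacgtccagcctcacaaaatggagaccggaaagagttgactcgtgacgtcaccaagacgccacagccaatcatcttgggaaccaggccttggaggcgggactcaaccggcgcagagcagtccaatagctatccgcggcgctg
Cdc6: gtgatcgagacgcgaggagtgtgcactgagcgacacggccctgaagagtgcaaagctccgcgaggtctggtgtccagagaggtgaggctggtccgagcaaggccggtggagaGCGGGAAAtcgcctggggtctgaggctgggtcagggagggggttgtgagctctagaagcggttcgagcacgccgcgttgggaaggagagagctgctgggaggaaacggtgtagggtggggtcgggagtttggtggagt
Mcm6: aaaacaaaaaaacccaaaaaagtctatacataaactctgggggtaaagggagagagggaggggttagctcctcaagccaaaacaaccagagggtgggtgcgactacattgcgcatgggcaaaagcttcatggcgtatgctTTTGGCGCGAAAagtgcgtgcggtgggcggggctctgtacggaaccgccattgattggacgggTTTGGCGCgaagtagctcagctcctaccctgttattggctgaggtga
Mcm7: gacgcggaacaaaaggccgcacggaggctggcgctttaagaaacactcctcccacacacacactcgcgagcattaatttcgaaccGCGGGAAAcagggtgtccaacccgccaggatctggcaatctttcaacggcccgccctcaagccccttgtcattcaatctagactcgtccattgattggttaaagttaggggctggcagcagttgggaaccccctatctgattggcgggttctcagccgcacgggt

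In windows from 250 bases before to 50 bases after the start, an E2F octamer was present for 6 of the 8 member genes with a promoter entry (75%): Mcm3, Mcm5, Mcm6, Mcm7, Cdc6 and Cdt1. Over the same windows of all 27025 genes in the table the share was 2.61%. The windows of Mcm2 and Pcna held none of these letters, nor did that of the second, downstream Mcm7 start. No promoter of Mcm4 is shown. The Mcm5 matches begin 153 and 149 bases before the start and overlap; the Cdc6 match begins 138 bases before it. Among other replication genes the octamers were found for 9 of 23 fork genes, 5 of 15 origin and licensing control genes, 3 of 10 firing genes and 0 of 7 genes of deoxynucleotide supply. These matches are letters in a window and do not mark a measured binding site.

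Mcm5 was the 1 licensing probe set that passed as lower in Notch1 null; averaged per gene, Cdc6 passed as well. This subunit forms, with Mcm2, the gate through which DNA enters the ring. Its ratio was 0.723 and 0.708 in Notch1 null, 1.153 in Notch1 het, 1.055 and 1 in Dll3 null, 1.027 and 0.929 in Dll3 het, and 1.020 and 0.981 in wild type. Both Notch1 null arrays lay below all 7 others, with a gap from 0.723 to 0.929, and the 7 others overlapped by group except for the higher Notch1 het array. Notch1 null averaged 0.716 ± 0.0106 and wild type 1.00 ± 0.0276 (SD, n = 2 each), a 1.40-fold lower level (log2 -0.48 ± 0.10 SE, 95% interval -0.72 to -0.25, limma adjusted p = 0.0210). Against Dll3 null the ratio was 1.44-fold lower (log2 -0.52 ± 0.10, adjusted p = 0.0227), and against the single Notch1 het array 1.61-fold lower (log2 -0.69 ± 0.13, adjusted p = 0.0351). Ordered by mean ratio, Notch1 het came first, followed by Dll3 null, wild type, Dll3 het and Notch1 null. The steps among the first 4 did not pass in the comparisons made: Notch1 het against wild type gave log2 0.20 ± 0.13 (adjusted p = 0.434), Dll3 null against wild type 0.04 (0.939) and Dll3 het against wild type -0.03 (0.911).

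The Mcm5 call rests on few arrays. Leaving out a Notch1 null, wild-type or Dll3 null array left 1 array in that group. Calls over all probe sets in the Notch1 null comparison with that group fell as well. Against wild type it ended without Notch1_null replicate 1 (adjusted p = 0.0804) or replicate 2 (0.126), without wild_type replicate 1 (0.106) or replicate 2 (0.0913), and after quantile normalization (0.0741), while the log2 difference stayed between -0.53 and -0.40 under all 21 alternatives. Against Dll3 null it ended without either Notch1 null array (0.0827 and 0.146), without Dll3_null replicate 1 (0.114) or replicate 2 (0.0553), after quantile normalization (0.0708) and with only these groups fitted (0.0797). Against Notch1 het it ended in 11 of 20 alternatives, among them replicate number as a block (0.0748), embryo sex in the fit (0.0915) and leaving out either Notch1 null array (0.104 and 0.144) or either wild-type (0.0720 each) or Dll3 het array (0.0527 each). The female and the male Notch1 null array had nearly the same ratio, 0.723 and 0.708, but 1 array of each sex is no test of embryo sex. The neural marker list moved with Mcm5 in part: its mean log2 over 10 genes was -0.75 and -0.75 in Notch1 null, -0.53 in Notch1 het, 0.10 and 0.02 in Dll3 null, 0.12 and 0.04 in Dll3 het, and 0.38 and 0.21 in wild type, and 8 of the 10 genes fell in Notch1 null against wild type. The Notch1 het array, low in neural markers, had the highest Mcm5 ratio of all 9. The mean log2 of 14 low-oxygen response genes was 1.08 and 1.30 in Notch1 null, -0.13 in Notch1 het and between -0.30 and 0.01 in the other 6 arrays, and 12 of the 14 rose in Notch1 null against wild type. Over all genes, averaged in the same way, 8.35% were lower and 3.76% higher. Of 10 somite markers 6 fell, and of 10 heart muscle markers 2 rose, while 0 of 9 primitive red cell, 0 of 10 yolk sac and 0 of 7 decidua and placenta markers passed. The part of any of these lists in the Mcm5 result was not tested.

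**Figure D1:**
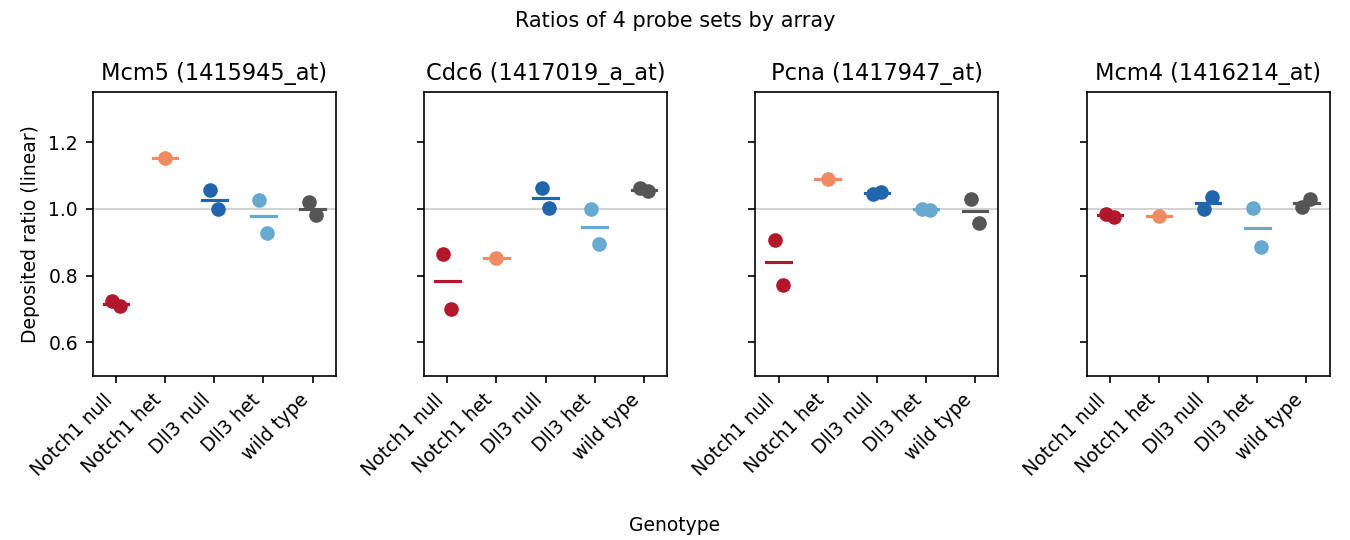
Ratios of Mcm5, Cdc6, Pcna and the Mcm4 probe set 1416214_at on each of the 9 arrays, with arrays grouped by genotype along the horizontal axis, deposited ratio on a linear vertical axis that does not start at 0, points for arrays and horizontal bars for group means. The 2 Notch1 null arrays lie lowest for Mcm5 (0.723 and 0.708) and for Pcna (0.908 and 0.772), while the Mcm4 points of all groups lie between 0.885 and 1.035.

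The other 5 helicase subunits did not pass in any of the 7 comparisons. Mcm4, Mcm6 and Mcm7 form the core with helicase activity of its own. Mcm4 at its first probe set, 1416214_at, had ratios of 0.985 and 0.976 in Notch1 null, 0.980 in Notch1 het, 1 and 1.035 in Dll3 null, 1.003 and 0.885 in Dll3 het, and 1.006 and 1.031 in wild type. Its difference between Notch1 null and wild type was log2 -0.05 (95% interval -0.29 to 0.18, adjusted p = 0.825), and the other Mcm4 probe set, 1436708_x_at, gave -0.15 (adjusted p = 0.599).

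Mcm6 was measured by 2 probe sets that spread differently. At 1438852_x_at the ratio was 1 and 0.832 in Notch1 null, 0.833 in Notch1 het, 0.871 and 1.035 in Dll3 null, 1.033 and 0.774 in Dll3 het, and 1.210 and 1.148 in wild type. Both wild-type arrays were above the 7 others, which overlapped among themselves. The Notch1 null difference from wild type was log2 -0.37 with an unadjusted p of 0.0452 and an adjusted p of 0.199. At 1416251_at it was -0.18 (adjusted p = 0.411), with ratios of 1 and 0.950 in Notch1 null and 1.189 and 1.032 in wild type.

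Mcm7 had 4 probe sets, and in the Notch1 het array they went apart. There their ratios ran from 0.859 at 1439269_x_at to 1.314 at 1416030_a_at, a 1.53-fold spread, whereas within each of the 8 other arrays the 4 lay within 1.01-fold to 1.21-fold of each other. The difference between Notch1 het and wild type was log2 0.50 ± 0.14 SE at 1416030_a_at (adjusted p = 0.0897) and -0.35 at 1439269_x_at (adjusted p = 0.211). The 4 probe sets of that 1 array therefore give no common direction for Mcm7. Between Notch1 null and wild type the 4 gave log2 differences of 0.07, -0.14, -0.13 and -0.20.

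Mcm2 and Mcm3 complete the ring, and their probe sets did not agree on the lowest array. Mcm2 at 1448777_at had ratios of 0.881 and 0.826 in Notch1 null, 0.917 in Notch1 het, 1 and 1.153 in Dll3 null, 1.072 and 1.165 in Dll3 het, and 0.939 and 1.050 in wild type. Both Notch1 null arrays were the lowest of the 9, and Notch1 het was next. The difference from wild type was log2 -0.22 (adjusted p = 0.309), and the other Mcm2 probe set gave -0.14 (adjusted p = 0.515). Mcm3 spread from 0.737 to 1.214 over its 5 probe sets and 9 arrays; the lowest value was that of 1426653_at in Notch1 het (log2 -0.45 against wild type, adjusted p = 0.205).

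As a description, since Mcm5 was singled out for its low value in Notch1 null, its log2 ratio was set against the mean of the 5 other subunits on the same array. The difference was -0.44 and -0.36 in Notch1 null, 0.23 in Notch1 het, 0.07 and -0.09 in Dll3 null, 0.01 and -0.01 in Dll3 het, and -0.08 and -0.05 in wild type. Notch1 null and wild type did not overlap, with a mean difference of -0.34 on the log2 scale. Averaged over all 6 subunits the log2 ratio was -0.10 and -0.19 in Notch1 null, 0.01 in Notch1 het, 0.02 and 0.07 in Dll3 null, 0.03 and -0.10 in Dll3 het, and 0.10 and 0.01 in wild type. Dll3_het replicate 2 lay next to the first Notch1 null array in this mean.

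Of the loading factors, Cdc6, the ATPase that works with the origin recognition complex, was low in all 3 arrays with a targeted Notch1 allele. Its ratio was 0.866 and 0.701 in Notch1 null, 0.854 in Notch1 het, 1.061 and 1.004 in Dll3 null, 1 and 0.894 in Dll3 het, and 1.061 and 1.054 in wild type. The Dll3_het replicate 2 value of 0.894 is close to that of Notch1 het. Notch1 null averaged 0.784 ± 0.117 and wild type 1.06 ± 0.00495 (SD, n = 2 each), and the log2 difference was -0.44 ± 0.13 SE (95% interval -0.72 to -0.16). With an adjusted p of 0.0588 it missed the threshold among probe sets; in the fit of per-gene averages the adjusted p was 0.0380. Among probe sets it passed in 0 of 9 fits that left out 1 array, and without Notch1_null replicate 2 the log2 difference was -0.29 (adjusted p = 0.323). Notch1 het against wild type gave -0.31 (adjusted p = 0.316) and Notch1 null against Notch1 het -0.13 (adjusted p = 0.752).

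Cdt1, the partner that brings the Mcm ring to the origin, had estimates above 0 at all 3 of its probe sets in Notch1 null. Their log2 differences from wild type were 0.15, 0.08 and 0.19, with adjusted p of 0.481, 0.799 and 0.462. At 1424143_a_at the ratio was 1.167 and 1.009 in Notch1 null, 0.903 in Notch1 het, 1.005 and 0.995 in Dll3 null, 1.030 and 1 in Dll3 het, and 0.974 and 0.988 in wild type. Both Notch1 null values there were above both wild-type values. The probe set 1455791_at has a median ratio of 0.684, below the 1 of the other 20 members.

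Pcna, the clamp that holds DNA polymerase on its template, had its lowest ratios in Notch1 null but did not pass the test. Its ratio was 0.908 and 0.772 in Notch1 null, 1.088 in Notch1 het, 1.044 and 1.051 in Dll3 null, 1 and 0.998 in Dll3 het, and 1.030 and 0.959 in wild type. Both Notch1 null arrays were the lowest of the 9. The log2 difference was -0.25 ± 0.11 SE against wild type (95% interval -0.50 to 0.00, adjusted p = 0.221), -0.32 against Dll3 null (0.135) and -0.38 against Notch1 het (0.196). Without Notch1_null replicate 2 the difference from wild type was -0.13, and without Notch1_null replicate 1 it was -0.36.

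**Figure D2:**
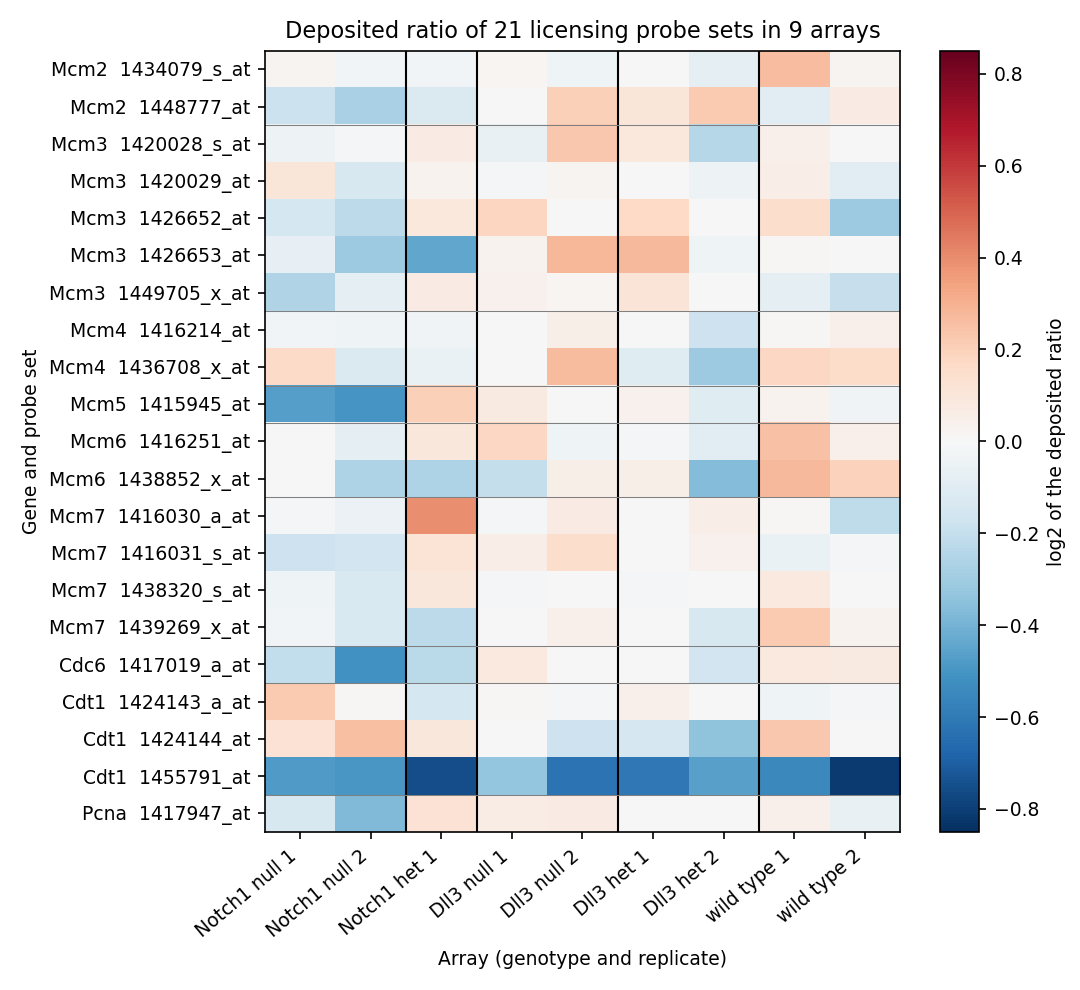
Log2 of the deposited ratio for each of the 21 member probe sets (rows, grouped by gene) on each of the 9 arrays (columns, grouped by genotype), with blue below 0 and red above 0. The Mcm5 row is dark blue in the 2 Notch1 null columns (0.723 and 0.708) and pale in the others, and the Cdt1 row 1455791_at is blue throughout because its median ratio is 0.684.

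Of the 21 probe sets 1 passed in Notch1 null against wild type, the Mcm5 one, and it was lower; of all 22626 probe sets 9.45% passed, 5.99% being lower. In Notch1 null against Dll3 null 1 of 21 was lower beside 3.27% of all lower and 5.74% passing either way. In Notch1 null against Notch1 het 1 of 21 was lower beside 0.928% of all lower and 1.78% passing either way. Both were Mcm5, and 1 of 21 is the smallest count above 0. These comparisons share the Notch1 null arrays. Estimates for the members lay mostly below 0: 17 of 21 had a log2 difference below 0 from wild type, beside 55.7% of all probe sets, and their median was -0.14 beside -0.03 for all. In 12 of 21 both Notch1 null arrays were below both wild-type arrays, beside 34.0% of all probe sets, and in 2 of 21 both were above, beside 21.2%. In 5 of 21 both Notch1 null arrays were the lowest of all 9, beside 11.3%: the Mcm5, Pcna and Mcm2 1448777_at probe sets and Mcm7 1416031_s_at and 1438320_s_at.

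Averaging the probe sets of each gene gave 9 values. Mcm5 and Cdc6 passed as lower in Notch1 null against wild type, 2 of 9 beside 8.35% of all genes, and 8 of 9 were below 0 beside 57.5%. Cdt1 was the gene above 0. The median of the 9 was -0.18 and that of all genes -0.03 on the log2 scale.

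**Figure D3:**
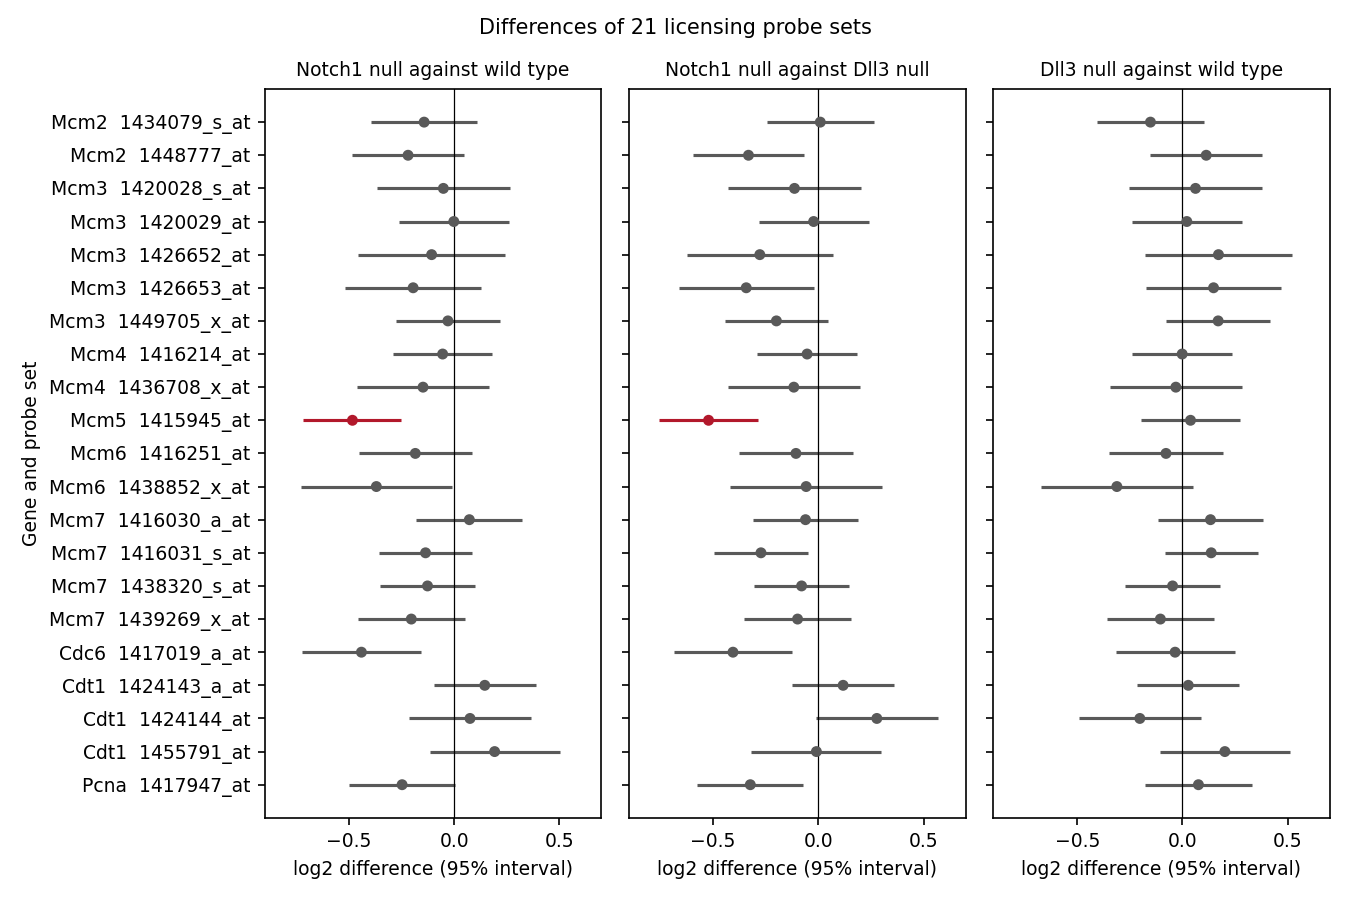
Log2 difference of every licensing probe set in Notch1 null against wild type, Notch1 null against Dll3 null and Dll3 null against wild type, with points for limma estimates, bars for their 95% intervals, and red for an adjusted p under 0.05. The Mcm5 and Cdc6 intervals lie wholly below 0 in both Notch1 null panels, and of these only Mcm5 passed. Intervals of some other members lie wholly below 0 in a single panel without passing. In Dll3 null against wild type the estimates run from -0.31 to 0.20 and none passed.

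No licensing probe set passed in the Dll3 comparisons. In Dll3 null against wild type 0 of 21 probe sets passed, beside 0.0884% of all. At an unadjusted p under 0.05 there were 0 of 21, beside 4.99% of all lower and 5.21% higher. Dll3 null against Dll3 het gave 0 of 21, beside 0.0% of all. Unadjusted, 1 of 21 had a p under 0.05, beside 1.98% of all lower and 3.33% higher. Dll3 het against wild type gave 0 of 21, beside 0.486% of all. Unadjusted, 3 of 21 had a p under 0.05, beside 8.78% of all lower and 7.24% higher. So few probe sets of any kind passed here that a count of 0 shows little about these genes; the Mcm5 difference of Dll3 null from wild type was 0.04 and the median over members 0.03. Notch1 het against wild type also gave 0 of 21, beside 2.76% of all. At an unadjusted p under 0.05 there were 4 of 21, 3 of them lower, beside 2273 of all 22626 probe sets lower and 2108 higher.

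Probe sets for the same gene agreed little more than probe sets for different genes, which limits what small differences can show. Over the 9 arrays the Pearson correlation of log2 ratios had a median of 0.23 over the 22 same-gene pairs, with a range from -0.51 to 0.82, and of 0.19 over the 188 pairs from different genes. All pairs share the same arrays, and the values are a description. Among all 12393 genes, those whose average followed the Mcm2 to Mcm7 mean most closely over the 9 arrays were Ndufaf4 and Slain1 (0.97 each), Tsr1, Cdr2 and Txnl1 (0.96 each), Rpf2 and Cct7 (0.95 each) and Qrsl1 (0.94). Without the 2 Notch1 null arrays their correlations over 7 arrays lay between 0.83 and 0.95. These genes were picked for their correlation over all 9 arrays, so the values over 7 are no separate check. None of them belongs to the replication lists used here. Within the members, the correlation with the same mean was 0.86 for Cdc6, 0.83 for Pcna and -0.41 for Cdt1.

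The steps on either side of licensing were then examined in Notch1 null against wild type, with probe sets averaged per gene and 3.76% of all 12393 genes higher and 8.35% lower. Of 14 measured genes of the origin recognition complex and licensing control, 1 fell, Orc2, a subunit of that complex (1.26-fold lower, adjusted p = 0.0363), and 1 rose, Ddb1, part of the ubiquitin ligase that destroys Cdt1 (1.37-fold, 0.0178). The remaining 12 did not pass, Skp2 (log2 -0.17) and Orc6 (-0.23) among them, and the median was 0.04. Of the 3 Orc2 probe sets 1 passed, and of the 6 Skp2 probe sets 1 was lower (1.32-fold, adjusted p = 0.0464). Of 11 origin firing genes 2 fell and 0 rose: Cdc45, which joins the Mcm ring in the active helicase (1.42-fold lower, adjusted p = 0.0169), and Gins4, of the GINS complex (1.34-fold lower, 0.0196). Gins1 (log2 -0.33, adjusted p = 0.0569) and Recql4 (-0.29, 0.0913) did not pass, and the median of the 11 was -0.09.

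Of 24 polymerase and fork genes 3 fell and 1 rose, beside 8.35% of all genes lower and 3.76% higher, with a median of -0.24. Fen1, the nuclease that trims Okazaki fragments, was 1.57-fold lower (adjusted p = 0.00703), Uhrf1, which guides maintenance DNA methylation, 1.49-fold lower (0.0148) and Pole3, a polymerase epsilon subunit, 1.31-fold lower (0.0192). The catalytic subunit gene of that polymerase, Pole, was 1.37-fold higher (adjusted p = 0.0154) and was picked out after its value was seen. Rfc1, of the clamp loader for Pcna, had an average log2 difference of -0.35 (adjusted p = 0.0802), while 1 of its 3 probe sets was 2.25-fold lower (0.0114). For the lower genes, 1 of 3 probe sets passed for Pole3, 2 of 2 for Fen1 and 2 of 2 for Uhrf1.

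Deoxynucleotide supply had the lowest median of the replication lists, -0.46, beside -0.03 for all genes, with 4 of 7 measured genes lower and 0 higher. For this and the lists below, 8.35% of all genes were lower and 3.76% higher. Rrm2, the regulated subunit of ribonucleotide reductase, was 1.42-fold lower (adjusted p = 0.0138). Dut, which removes dUTP (0.00972), Dck, deoxycytidine kinase (0.0443), and Tk1, thymidine kinase (0.0189), were each 1.38-fold lower. Taken singly, 2 of 3 probe sets passed for Rrm2, 2 of 2 for Dut, 1 of 3 for Dck and 1 of 1 for Tk1. Among 18 genes of E2F and G1/S control 2 fell and 0 rose: Ccne1, cyclin E1, which drives entry into S phase, was 2.33-fold lower (adjusted p = 0.000516), and Cdkn1c, a Cdk inhibitor, 1.64-fold lower (0.00489). The averages of E2f1 (log2 -0.28, adjusted p = 0.110) and Rbl1 (-0.11) did not pass, while 1 of the 2 E2f1 probe sets was lower (1.32-fold, 0.0380). Among 19 genes of G2 and mitosis 3 fell and 1 rose. Mki67, the proliferation marker, was 1.48-fold higher (adjusted p = 0.0139), while Cenpa, the centromeric histone, was 1.37-fold lower (0.0314); the averages of Kif11 (log2 0.50) and Cenpf (0.23) did not pass. For Kif11 1 of 3 probe sets was higher (1.55-fold, adjusted p = 0.0406), and for Cenpf 1 of 2 (1.41-fold, 0.0195). The other genes that fell, picked out after their values were seen, were Birc5 (1.28-fold lower) and Cenpe (1.82-fold lower).

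Most of these list counts fell when 1 Notch1 null or wild-type array was left out, which leaves 1 array in that group. Far fewer of all probe sets passed in the probe-set fits without the same arrays, so the counts do not show that a single array carries a call. In the probe-set fits 4.28% of all passed after quantile normalization, beside 9.45% in the main fit. The list counts are of per-gene averages, of which 12.1% passed in the main fit. Their share after quantile normalization was not counted. The 4 lower genes of deoxynucleotide supply became 0 without Notch1_null replicate 2 or without wild_type replicate 1, 1 without wild_type replicate 2 and 1 after quantile normalization. The 3 lower fork genes became 0 without Notch1_null replicate 2 and 1 without either wild-type array or after quantile normalization. The 2 lower firing genes became 0 without any 1 of the Notch1 null or wild-type arrays and after quantile normalization. The same settings took the lower gene of origin and licensing control to 0, as did median centring. The 3 lower mitosis genes became 1 without Notch1_null replicate 1 or with median centring and 0 without any 1 of the other Notch1 null and wild-type arrays or after quantile normalization. The lower count of E2F and G1/S control stayed at 2 or 3 with each of the 9 arrays left out and under both scalings.

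**Figure D4:**
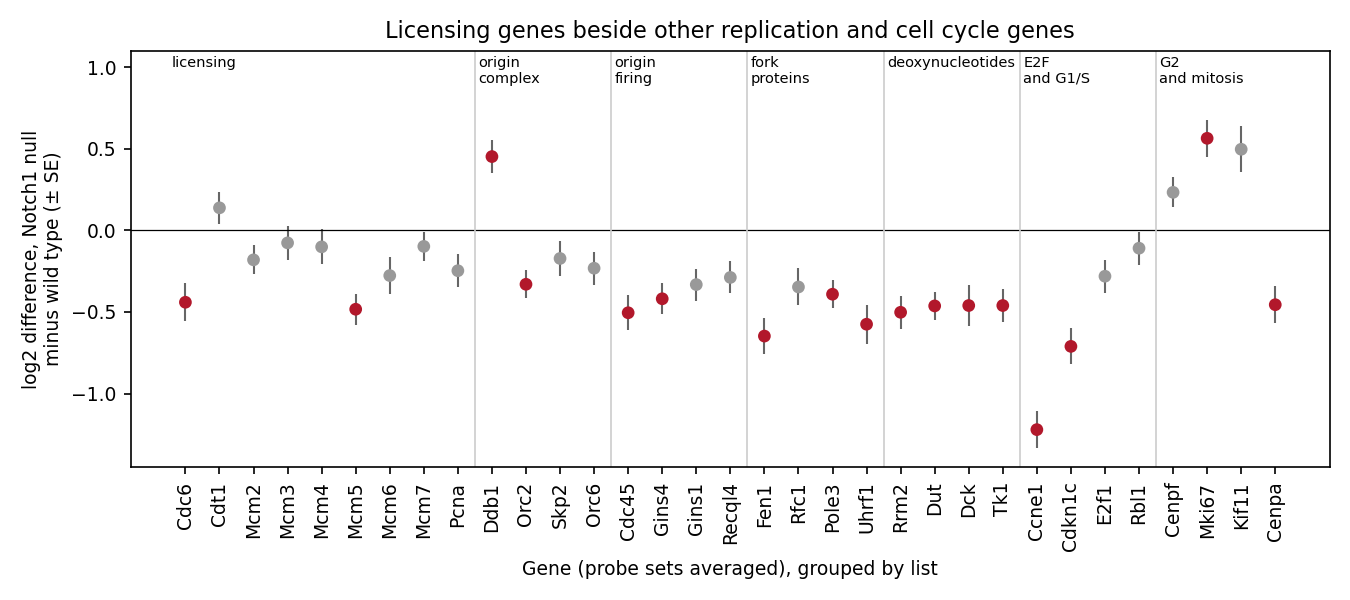
Log2 difference in Notch1 null against wild type of the 9 licensing genes and the genes named from 6 replication and cell cycle lists, averaged over probe sets, with points for limma estimates, bars for 1 SE to either side and red for an adjusted p under 0.05. Ccne1 lies lowest (2.33-fold lower), the 4 named genes of deoxynucleotide supply lie close together near 1.4-fold lower, and Mki67 and Ddb1 lie above 0.

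Against Dll3 null, Notch1 null again had 4 lower and 0 higher genes of deoxynucleotide supply, 3 lower and 1 higher fork genes (Fen1, Rpa2 and Uhrf1 lower, Pole higher), and 1 lower gene each for origin and licensing control (Orc2), E2F and G1/S control (Ccne1) and mitosis (Birc5), beside 4.87% of all genes lower and 2.92% higher. No firing gene passed there. This comparison shares its Notch1 null arrays with the one against wild type. In Dll3 null against wild type 0 genes of the 6 lists passed by limma, beside 0.00807% of all genes lower and 0.0% higher.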

How the data were processed

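Whole-embryo RNA of 9 samples was measured on Affymetrix arrays. RMA is named in the submitters' processing notes without a version. What the authors deposited is a ratio on a linear scale. The median over arrays is exactly 1 for 19847 of the 22690 probe sets, lies more than 0.002 below 1 for 2824 and is above 1 for 0. This pattern shows a division by a number specific to the probe set, a step that no source used here states; differences between arrays are kept and absolute levels are not.

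Log2 of the ratio, with no pseudocount, was fitted by limma 3.58.1 (R 4.3.3) for the 22626 probe sets that are not among the 64 controls. The lmFit model held a mean for each genotype and used the 9 arrays together; eBayes added 5.42 prior degrees of freedom to 4 residual ones. Benjamini-Hochberg adjustment ran over all probe sets, separately for the 7 comparisons, and a probe set passed at an adjusted p under 0.05. Errors given as SE come from this fit, in which the lone Notch1 het array was assumed to vary like the others. For gene lists, probe sets of a gene were averaged, and 12393 genes were tested. Depth does not apply to arrays; their number limits the precision. The procedure was tested on simulated data.

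All 21 member probe sets are described. From each of 6 replication and cell cycle lists the up to 4 genes whose best single probe set had the lowest p in Notch1 null against wild type were named, while the values printed are per-gene averages unless a probe set is mentioned, with the 8 genes of highest Pearson correlation with the Mcm2 to Mcm7 mean. The members and lists were chosen with earlier results of these data known. Gene symbols come from the platform annotation; 20380 probe sets have 1 symbol and 691 several. Promoters of 8 of the 9 member genes were matched by symbol to RefSeq windows of build GRCm38.p6. Same-numbered replicates of different genotypes were not taken as pairs, since correlations of their deviations ran from -0.0983 to 0.159. Alternatives were other scalings, weighted, robust and smaller fits, replicate number or embryo sex in the fit, per-gene averages and leaving out each array. A fit without the _s_at and _x_at probe sets, and the list counts with arrays left out or rescaled, were chosen after seeing the data.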

Additional observations from a re-analysis of the deposited data

How the results depend on the processing

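In Notch1 null against wild type the count of 1 member probe set became 2 with array weights, 2 with embryo sex in the fit, 2 of 9 genes with probe sets averaged per gene and 0 after quantile normalization, and ran from 0 to 1 when single arrays were left out. Against Notch1 het the count of 1 became 0 with embryo sex, with only these groups fitted, with only wild type and the same locus, after quantile normalization and with replicate number as a block, and ran from 0 to 1 with single arrays left out. Against Dll3 null the count of 1 became 0 with only these groups fitted and after quantile normalization, and ran from 0 to 1 with single arrays left out. With replicate number as a block the counts were 1 against wild type and 1 against Dll3 null. Against wild type 9.45% of all probe sets passed in the main fit, 11.2% with array weights and 7.25% with embryo sex. With probe sets averaged 12.1% of all genes passed. Where the member counts fell, calls over all 22626 probe sets fell too. With only these groups fitted 0 passed against Notch1 het, so the member count there was fixed at 0. Against Dll3 null 9 passed in that fit, 0 of them lower. Against Notch1 het 0.464% passed with embryo sex, 0.389% with the same locus, 0.217% after quantile normalization and 0.663% with the block. Quantile normalization left 4.28% against wild type and 2.51% against Dll3 null. In the 4 other comparisons 0 members passed under every alternative run. The causes were not tested. Mcm5 passed against wild type in 16 of 21 alternatives, against Dll3 null in 14 of 20 and against Notch1 het in 9 of 20; Cdc6 passed against wild type in 3 of 21. Leaving out the Notch1 het array, or fitting 1 locus, gave no value for comparisons that need the arrays removed. With 2 arrays a group, or 1, small differences could not be resolved, and a p that missed the threshold does not show equal levels.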

Other observations

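The difference between null and heterozygous embryos was also compared between the 2 loci. For Mcm5 it was lower at the Notch1 locus than at the Dll3 locus by a log2 difference of -0.76 ± 0.16 SE, which did not pass after adjustment over 22626 probe sets (adjusted p = 0.120). Of all probe sets 47 passed this test by limma and 0 of the 21 licensing probe sets did. Unadjusted, 4 of the 21 had a p under 0.05. How many of all probe sets did so was not counted, so the 4 cannot be set against a share of all. The Notch1 side rests on a single heterozygous array.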
